A study of Mus musculus with 2 samples.

Results

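MicroRNA hairpins give a short duplex whose strands have different fates. The guide strand is loaded into an Argonaute protein and directs repression of messenger RNAs through its seed, the stretch near its 5′ end that pairs with targets, whereas the passenger or star strand, written with an asterisk in older nomenclature, is mostly degraded. Some star strands are loaded as well and accumulate in cells, and which arm accumulates can differ between tissues. Later nomenclature names the arms by position, 5p and 3p, without ranking them. Star strands were described here in microvesicles of 3T3-L1 adipocytes, a mouse preadipocyte line that becomes lipid-filled after hormonal induction.

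All 114 mouse entries whose name ends in an asterisk were taken, out of 567 mouse miRNA entries on a 1-colour Agilent array. Each was set beside its guide, the entry of the same name without the asterisk, which the array held for 103 of them. Vesicles were pelleted by ultracentrifugation from medium that the cells had conditioned for 48 h, in an early (day 2-4) and a late (day 8-10) window of differentiation, and each window was read on 1 array. Cells of both windows had been induced with 0.5 mM IBMX, 0.25 µM dexamethasone and 10 µg/ml insulin in medium holding 10% fetal calf serum, and uninduced cells were not analysed here. Bovine miRNAs of the serum and those of the cells cannot be told apart, nor can preparation, array and time window. With 1 array per window no difference has a replicate check and no test was made, and each standard error (spot SE) covers the technical spread over spots alone. Signals are processed intensities, background-subtracted and linear, and a signal of 1 probe is not comparable in amount with that of another. An entry was called detected where, for at least 1 of its probes, more than 0.5 of the spots were well above background.

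All 10 adipocyte marker miRNAs of a list (among them miR-103, miR-148a and miR-378) were detected in both windows, as were 7 of 9 fibroblast markers. Of the blood and serum list 3 of 7 were detected in the first window and 4 of 7 in the second. None of the 4 muscle, 1 liver and 2 endothelial markers was detected, and of the 3 neural markers miR-128 was. Of all mouse entries 27.5% were detected in the first window and 29.3% in the second. The shorter lists are too small to be read against these shares, and all lists were chosen with earlier results of these data known. The part of these markers in the star signals was not tested.

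Mature sequences of detected stars and guides show which strand each probe set reads. They are given 5′ to 3′ as RefSeq lists them for GRCm38.p6, with the seed (bases 2 to 8) in capitals, and miR-199b*, miR-140, miR-378* and miR-378 are named only. Of the 114 stars 99 were matched to a RefSeq sequence, and of the 103 guides 87 were. In the 79 pairs where it could be compared, the distance between the 3′ ends of the arms was the same in the array files and in RefSeq.
let-7d*: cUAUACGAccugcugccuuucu
let-7d: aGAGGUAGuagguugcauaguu
miR-135a*: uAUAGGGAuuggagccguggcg
miR-135a: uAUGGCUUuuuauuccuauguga
miR-140*: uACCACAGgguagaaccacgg
miR-193*: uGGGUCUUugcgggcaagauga
miR-193: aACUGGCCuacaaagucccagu
miR-199b: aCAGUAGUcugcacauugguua
miR-30c-1*: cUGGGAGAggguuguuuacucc
miR-30c-2*: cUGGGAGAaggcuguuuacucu
miR-30c: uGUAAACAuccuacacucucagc
miR-877*: uGUCCUCUucucccuccuccca
miR-877: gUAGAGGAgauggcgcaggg
miR-99b*: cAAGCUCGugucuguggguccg
miR-99b: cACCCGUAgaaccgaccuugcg

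Few star strands gave a signal in the vesicles. At day 2-4, 7 of 114 stars (6.14%) were detected, against 27.5% of all mouse entries, and at day 8-10, 9 of 114 (7.89%), against 29.3%. On both arrays 6 stars (5.26%) were detected, against 25.6% of all mouse entries. On either array 10 stars (8.77%) were detected, against 31.2% of all mouse entries, 36.9% of the 453 entries without an asterisk and 46.6% of the 103 guides. Entries named 5p or 3p, whose arms are not ranked, stood in between at 22.5% of 129. The designs of the entries differed, since 81 of 114 stars and 15 of 103 guides had 4 probes, and the part of this in the detection shares was not tested. By probe, 18 of 393 star probes (4.58%) were detected on either array, against 26.4% of the 1279 probes of entries without an asterisk. The detection call of the scanner software, which is more permissive, gave 18 of 114 stars, 52 of 103 guides and 208 of 567 mouse entries.

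Most pairs had no detected strand or the guide alone. Of the 103 pairs, 41 had the guide alone detected on either array, 7 had both strands, 54 had neither and 1, miR-135a, had the star alone. A star was thus detected in 14.6% of the pairs whose guide was detected and in 1.82% of those whose guide was not.

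**Figure D1:**
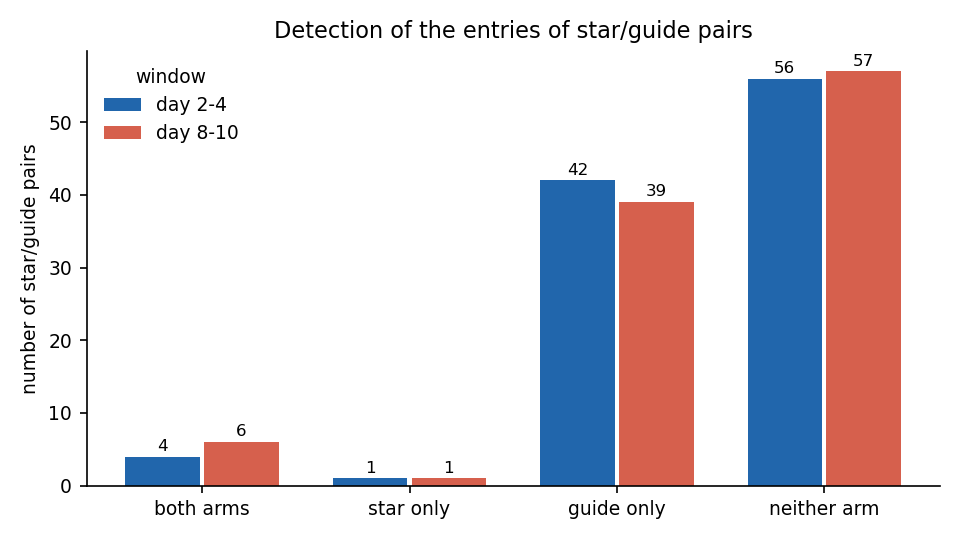
Number of star/guide pairs (of 103, vertical axis) in which both entries, the star alone, the guide alone or neither was detected, by window (blue, day 2-4; red, day 8-10; 1 array each). Pairs with the guide alone numbered 42 and 39, and pairs with both 4 and 6.

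The stars of miR-199b and miR-135a were well above background on every spot of every probe in both windows. miR-199b*, from the hairpin inside the span of Dnm1, belongs to a family abundant in fibroblast-like cells. Its signal was 210.3 at day 2-4 and 79.5 at day 8-10 (mean over 2 probes, 20 spots per array), on probes covering 21 and 22 bases. Its log2 difference, late minus early, was -1.27 (spot SE 0.024), or 2.41-fold lower late, the 10th lowest of 145 miRNAs detected on both arrays. Of the 6 stars detected on both arrays it was the 1 (16.7%) at least 2-fold lower late, and 0 (0%) were at least 2-fold higher. Of all 145, 7.59% were at least 2-fold lower and 15.9% higher, a split of 11 and 23 that became 29 and 10 when the scale was set by all probes. Under normexp, another background correction, run here with 50 added to every signal, the difference of miR-199b* was -0.81, less than 2-fold. Adding a constant shrinks log2 differences by construction, most for dim entries, here and in the normexp values given below. The guide entry, miR-199b, went from 476.4 to 220.4 (log2 difference -0.95, spot SE 0.020). The array files place that entry on chromosome 1 and give it the accession of miR-199a-3p too, so it is not specific to the hairpin of miR-199b*. miR-199a-5p, the family member closest to miR-199b*, went from 179.6 to 59.8 (log2 difference -1.40), and shared signal between these probes was not tested.

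miR-135a* was the star detected without its guide. Its signal was 187.3 at day 2-4 and 104.9 at day 8-10 (4 probes), with 20 of 20 spots well above background in each window. The difference of -0.75 on the log2 scale (spot SE 0.040) was below 2-fold, and the 4 probes ranged from -1.01 to -0.62. Scaled by the 75th percentile of all probes it was -1.26. The guide miR-135a, known as a repressor of Wnt pathway transcripts, gave -0.32 and -0.56, at background, with no spot of 20 well above it in either window. The related miR-135b gave -0.15 and -0.45. The star comes from the 3′ arm of Mir135a-1 (GRCm38.p6 chr9:106154124-106154213, plus strand), within the spans of Glyctk and of the long noncoding RNA D030055H07Rik. The hairpin is shown with that arm in capitals, since its signal has no counterpart on the opposite arm.
Mir135a-1: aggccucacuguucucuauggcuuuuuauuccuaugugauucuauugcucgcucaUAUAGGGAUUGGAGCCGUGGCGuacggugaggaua

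The probes that read miR-135a* cover only its 3′ end. By the coordinates in the files they pair with 10, 11, 12 and 13 bases, and their day 2-4 signals were 25.8, 34.3, 267.3 and 421.8. At day 8-10 they were 11.3, 18.6, 153.0 and 236.5. Of the 13 bases under the longest probe, in capitals here, 76.9% are G or C, the highest share among the detected stars with a sequence. What other RNA could pair with so short a stretch was not tested.
miR-135a*: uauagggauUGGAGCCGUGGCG

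The miR-30c hairpins, whose shared guide targets extracellular matrix and adipogenesis transcripts, gave a pair of stars that differ by few bases and share the seed UGGGAGA. From miR-30c-1* to miR-30c-2* the substitutions are G9A, U12C and C22U, counted from the 5′ end. Each was detected by its longest probe alone, which covers the 19 bases in capitals.
miR-30c-1*: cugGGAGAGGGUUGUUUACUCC
miR-30c-2*: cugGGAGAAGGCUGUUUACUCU
For miR-30c-1* that probe gave 16.5 at day 2-4 and 19.0 at day 8-10 (log2 difference 0.38, spot SE 0.056), which turned to -0.12 when the scale was set by all probes. For miR-30c-2* it gave 16.4 and 7.89 (log2 difference -0.88, spot SE 0.063), which was 1.84-fold lower late, and the difference was -0.080 with normexp. The probes 1 base shorter were at background in both windows, with 0.30 and 0.29 for miR-30c-1* and -0.11 and 0.15 for miR-30c-2*. The array has no guide entry under the numbered names. The entry miR-30c, which both hairpins produce, went from 21.2 to 37.8 on its 1 usable probe (log2 difference 1.03). None of the other 3 stars of miR-30 hairpins was detected, while their guides miR-30a, miR-30b and miR-30e were. The more permissive scanner software did call miR-30a* detected at day 8-10.

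miR-140* was detected in both windows beside its guide. RefSeq calls it miR-140-3p, from a hairpin within the span of Wwp2, and the miRNA is best known from cartilage. Its mean signal was 18.3 at day 2-4 and 11.7 at day 8-10 (2 probes), a log2 difference of -0.26 (spot SE 0.056) that was 0.0062 with normexp. The longer probe went from 29.5 to 18.6, and the shorter from 6.97 to 4.84, where it was no longer detected. miR-140 gave 8.60 and 7.44 (log2 difference 0.037, of the opposite sign under 6 of 11 alternatives). The star changed by -0.30 relative to its guide (spot SE 0.081), a quantity that scaling an array by a constant cannot move, and by -0.52 over the probe detected on both arrays.

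miR-378* and miR-193*, whose guides are tied to fat cells, passed the rule of more than 0.5 of spots in the late window alone. The scanner software called miR-378* detected in both windows, and miR-193* in the late one. miR-378* comes from a hairpin within the span of Ppargc1b, the gene of a coactivator of mitochondrial genes. miR-378* gave 4.01 at day 2-4, with 15.8% of its spots well above background, and 13.9 at day 8-10, with 100%. After scaling, the late signal was at least 3.03-fold the early one, with each early spot set to at least the lowest detected probe. The log2 difference was 1.26 with a common floor for both arrays and 0.33 with normexp. Its guide miR-378 was detected in both windows, at 40.5 and 89.7 (2.53-fold higher, with a log2 difference of 0.72 under normexp). miR-193*, the 5p strand of a miRNA linked to brown fat, gave 1.46 on its longest probe at day 2-4, not well above background, and 8.02 at day 8-10. With the main scaling and floors miR-193* was at least 1.87-fold higher late, on 1 of its 4 probes. Its log2 difference was 0.52 with a common floor and 0.39 with the scale set by all probes. Alternatives ran from 0.24 (normexp) to 3.875 (the software's gene signal). miR-193 went from 44.1 to 82.5 (2.11-fold higher, with a log2 difference of 0.50 under normexp). By this rule both stars were detected in the window in which the guide was brighter. The other stars detected in 1 window did not show this. miR-99b* was detected late while its guide went from 22.3 to 18.4, and let-7d* early while let-7d was near equal in both windows. The guides of miR-378* and miR-193* belong to the adipocyte marker list, of which 9 of 10 were at least 2-fold higher late, against 15.9% of all miRNAs detected on both arrays. Among the 7 detected fibroblast markers 0 were higher and 2 were lower by that measure, with a median log2 difference of -0.57. Both lists were chosen with earlier results of these data known, and these counts depend on the processing. With the scale set by all probes the log2 differences of miR-378 (0.83) and miR-193 (0.57) were below 2-fold. Under normexp, whose added constant shrinks differences by construction, 5 miRNAs of the whole array were at least 2-fold higher late, against 23. The part of these marker shifts in the star values was not tested.

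The remaining 3 detected stars lay close to the detection limit. miR-877*, from a mirtron (a short intron spliced out as a hairpin) of Abcf1, had probe means from 4.13 to 5.56 at day 2-4 and from 4.72 to 6.83 at day 8-10. None of its probes was detected on both arrays. Its log2 difference of 0.38 equals that of a probe at the floor on both arrays (0.38) and turned negative under 2 alternative scalings. The guide miR-877 gave 19.2 and 24.6 (log2 difference 0.55). miR-99b* was detected at day 8-10 on 1 of 4 probes, at 4.55 (40% of spots well above background) and 6.92 (60%). After scaling and the floor it read 1.515-fold higher late. That is no strict lower bound, since late spots below the floor are raised too. With a common floor its log2 difference was 0.33. With the scale set by all probes its log2 difference was 0.091, and the scanner software called it detected in both windows. Its guide, miR-99b, gave 22.3 and 18.4 (log2 difference -0.068, positive with normexp). let-7d*, from the let-7 family that restrains proliferation, was detected at day 2-4 on 1 of 4 probes, at 5.64 against 1.37, and no bound above 1 could be given. let-7d gave 82.6 and 82.5, near equal in both windows.

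**Figure D2:**
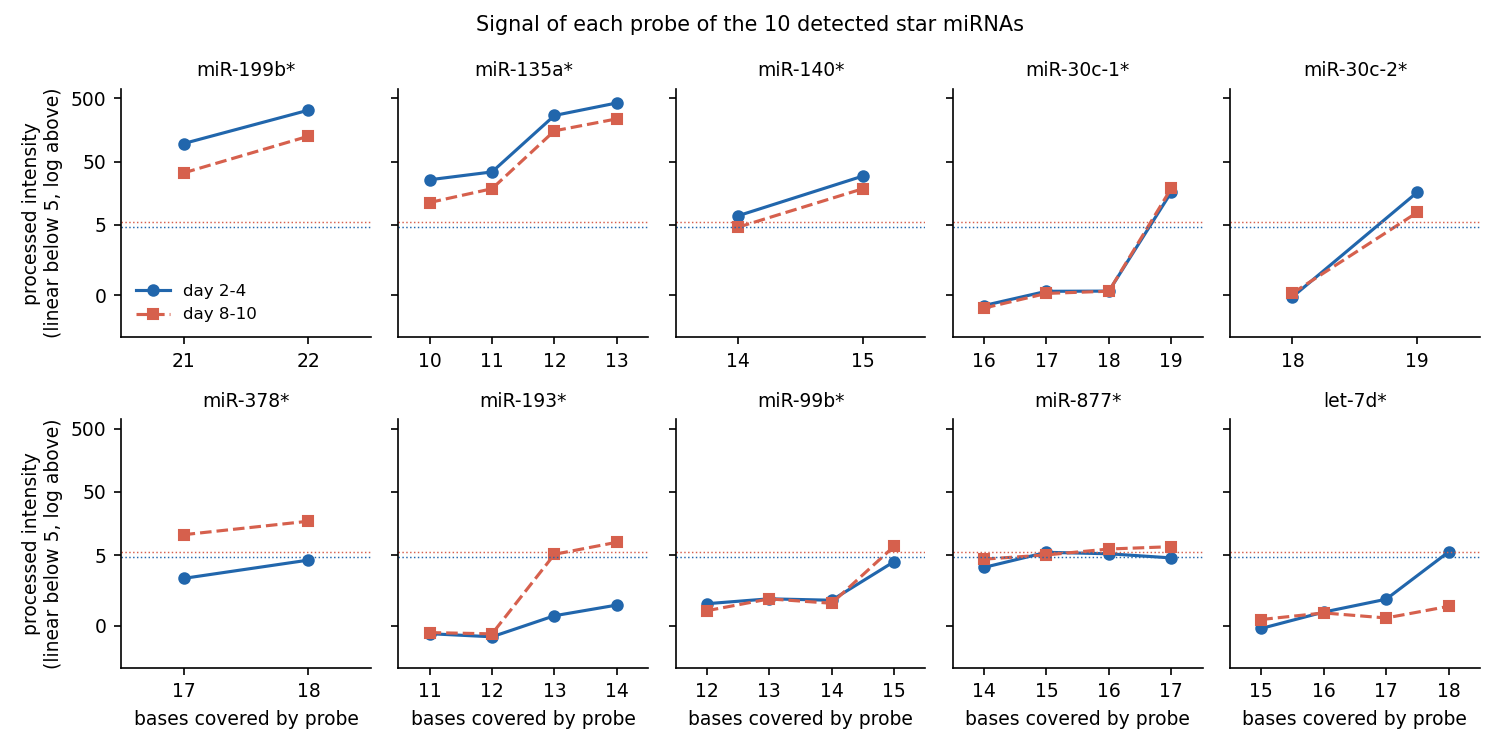
Processed intensity (vertical axis, linear below 5 and logarithmic above) of each probe of the 10 detected stars against the number of bases it covers (horizontal axis), at day 2-4 (blue circles) and day 8-10 (red squares), 1 array each. Points are means over spots and dotted lines the lowest detected probe of each array (4.86 and 5.55). In 10 of 10 stars the longest probe was the brightest over both arrays together, and in 5 of 10 it carried the detection alone.

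Detection of stars leaned on single probes. In 5 of 10 detected stars (50%) 1 probe carried the call, against 22.8% of the 167 detected entries without an asterisk. The longest probe was the brightest in 10 of 10 detected stars and in 89.7% of 174 detected mouse entries with probes of several lengths.

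Across the 6 stars detected on both arrays the median log2 difference was -0.50, from -1.27 to 0.38, with 2 above 0 and 4 below. The 43 guides detected on both arrays had a median of 0.52 and all 145 such miRNAs a median of 0.20. Other scalings moved the median of all miRNAs by up to -0.51, and the star median ran from -1.01 (75th percentile over all probes) to 0.12 (the software's gene signal, which counts more stars as detected). Against the median of all miRNAs, miR-199b* stood at -1.47, miR-30c-2* at -1.09, miR-135a* at -0.95, miR-140* at -0.46, miR-30c-1* at 0.18 and miR-877* at 0.17. In the 3 pairs with both strands on both arrays the star's log2 difference minus that of its guide was -0.32 for miR-199b*, -0.30 for miR-140* and -0.17 for miR-877*, each less than 2-fold. The value of miR-199b* was 0.017 with normexp, and its guide entry is not specific to its hairpin. That of miR-877* rests on probes near the floor, none of which was detected on both arrays.

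**Figure D3:**
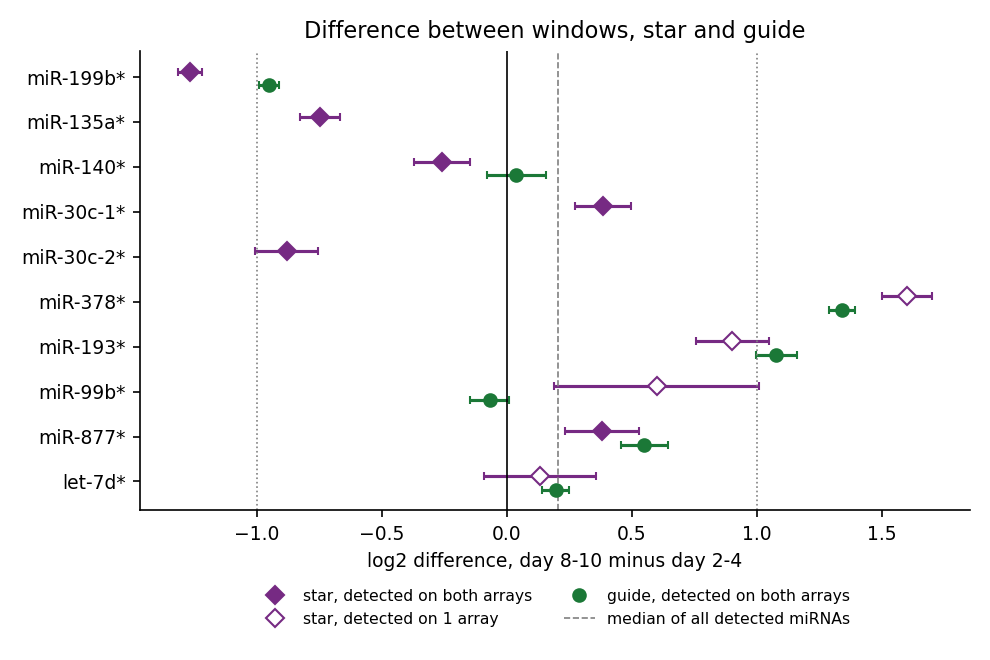
Log2 difference between windows (horizontal axis, day 8-10 minus day 2-4) of the 10 detected stars (purple diamonds, open where detected on 1 array) and of their guides detected on both arrays (green circles), with bars of 2 spot standard errors. Dotted lines mark 2-fold and the dashed line the median of all detected miRNAs (0.20). miR-199b* at -1.27 is the lowest, and miR-378* at 1.60, a value set by the floor at day 2-4, the highest.

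By the rule of more than 0.5 of spots, 36 guides detected on both arrays had a star detected on neither. Signals of these guides reached 514.2 at day 2-4 and 687 at day 8-10, with medians of 43.4 and 54.4. The more permissive scanner software called some of these stars detected. They were miR-483* in both windows, miR-214* and miR-322* at day 2-4, and miR-22*, miR-183*, miR-30a* and miR-712* at day 8-10. miR-22 gave 514.2 and 687, and miR-22* 1.47 and 3.73. miR-21, a miRNA of fibroblasts and many other cells, gave 327.5 and 316.2, and miR-21* 0.00080 and 0.091. Of the 36 guides 6 were at least 2-fold higher late (miR-183, miR-29b, miR-148a, miR-29c, let-7b and miR-30e) and 3 at least 2-fold lower (miR-214, miR-483 and miR-322), shares near the 15.9% and 7.59% of all miRNAs detected on both arrays. miR-183, which had the largest late gain of the 36, went from 13.5 to 73.0, and miR-183* gave 0.41 and 1.39. miR-214, from the locus of miR-199a, went from 206.5 to 58.7, with 2.14 and 1.93 for miR-214*.

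**Figure D4:**
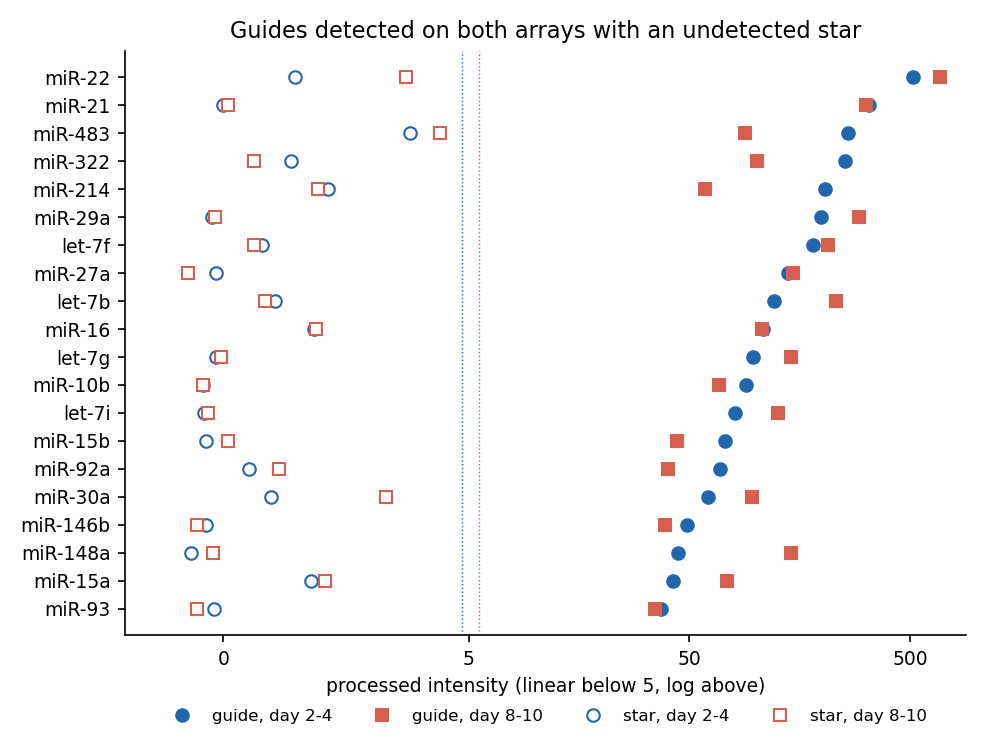
Processed intensity (horizontal axis, linear below 5 and logarithmic above) of the 20 brightest guides detected on both arrays whose star was detected on neither (filled), and of these stars (open), at day 2-4 (blue circles) and day 8-10 (red squares), 1 array each. Dotted lines mark the lowest detected probe of each array, and all open symbols lie left of them, at 4.42 (miR-483*) or below. Distances between guide and star are not ratios of amounts, since each probe has its own response. Guide points are means over detected probes and star points means over all probes.

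The 104 undetected stars had signals like those of negative control spots. Their median was -0.15 at day 2-4 and -0.11 at day 8-10, against -0.19 and -0.25 for the negative controls, and 101 and 97 of them had no spot well above background. By share of spots well above background the nearest to the limit was miR-483*, with 3.80 and 4.42 and 5 of 19 spots well above background at day 8-10. miR-322* had 2 of 19 such spots at day 2-4 and miR-22* had 2 of 20 at day 8-10, while miR-30a*, miR-183* and miR-674* had 1 each at day 8-10. The more permissive scanner software called each of these 6 detected in at least 1 window. Signals of undetected stars are means over all their probes, those of detected entries over detected probes only. Among these 6, such means lay above the highest negative control spot (2.43 and 2.31) for miR-483* in both windows. For miR-22* and miR-30a* they did so at day 8-10, at 3.73 and 3.33. By the brightest probe alone each of the 6 lay above 2.31 at day 8-10, from 2.70 (miR-322*) to 5.26 (miR-483*). At day 2-4 the brightest probes of miR-322* (4.71, 40% of spots well above background), miR-483* (3.25) and miR-674* (3.14) lay above 2.43, and those of the others did not.

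Counts by hairpin family are small and are set here against the 8.77% of all stars detected on either array. Of 7 let-7 stars 1 was detected (let-7d*), of 5 miR-30 stars 2, and the 1 star of the miR-199 hairpins. None was detected of 8 stars of the miR-17 cluster and its paralogs, which promote proliferation, of 3 miR-29 stars, of 3 miR-15/16 stars, of 13 stars of the imprinted Dlk1-Dio3 cluster or of 3 stars of the Sfmbt2 repeat cluster. Of 25 stars known to accumulate in some cells the array held 20, and 5 were detected on either array. That list was chosen with earlier results of these data known, so its count is not independent of them. None of the families above is large enough for its count to be read against the share of all stars.

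In sequence, the detected stars that had one were richer in G and C than the rest, and miR-199b* and miR-378* are left out. Their median GC content was 55.8%, and 8 of 8 with a sequence had at least 50%, as had 45 of 91 undetected stars (49.5%), whose median was 47.8%. For guides the medians were 42.9% for 43 detected and 43.5% for 44 undetected ones. A first base U, the base that Argonaute loading favours, was found in 4 of 8 detected and 15 of 91 undetected stars, and in 56.3% of the guides. Of the 9 detected stars given an arm by positions or RefSeq names, which leaves out miR-199b*, 7 lay on the 3p and 2 on the 5p arm, against 59 and 41 of the undetected stars. The guide entry of miR-199b* was matched to a 3p strand, which would put this star on the 5p arm. The counts are small, and hybridisation strength also depends on GC content, whose part was not tested.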

How the data were processed

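Processed intensity values were made with Agilent Feature Extraction 9.5.3.1, which subtracted a fitted background surface from each spot and did not normalize between arrays, per the file headers. The deposited series value table equals these intensities for 12493 of 12493 spots on each array. The build of the files' coordinates was not given in the sources used here, and printed coordinates are those of RefSeq GRCm38.p6. Total RNA of 100 ng was labelled per array, per the labels' protocols.

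Control and outlier spots were left out, and no spot was saturated. Detection of a probe required that the deposited flag put over 0.5 of its spots well above background, and detection of an entry required 1 such probe. Signals were divided by the array's 75th percentile over 279 probes detected on both arrays (108.3 and 95.2), set to at least the lowest detected probe (4.86 and 5.55) and taken to log2, then averaged over spots and over probes detected on either array. Printed intensities are means over the same probes, or over all probes of an entry where none was detected. Because the scaled floors differ, a probe at the floor on both arrays reads 0.38. An entry detected on both arrays was called higher or lower where it differed by at least 2-fold and by more than 2 spot SE. For an entry detected on 1 array the fold of the scaled, floored means is a lower bound where its spots on the brighter array lie above the floor. Every detected star was named with its guide, then up to 6 undetected stars with the highest share of spots above background, and guides with an undetected star were chosen after their values were seen. Members and lists were chosen with earlier results of these data known. Precision is limited by the number of arrays. The steps were tested on simulated data, in Python 3.11.15 with pandas 2.3.3 and numpy 2.4.6, and normexp (offset 50) was run in limma 3.58.1. Changes were simulated only in bright entries, so changes near the floor, the bounds and the deposited detection flag were not tested in this way. Alternatives changed the scaling, background correction, detection rule, probe summary, outlier spots and floor.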

Additional observations from a re-analysis of the deposited data

How the results depend on the processing

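All values rest on 1 array per window, so no replicate could be left out. No paired analysis was possible because each window has 1 array. Detection of 10 stars (7 early, 9 late) was 18 (12 and 15) by the software's gene signal, 20 (12 and 16) where any spot sufficed and 8 where every spot was needed. The median star difference of -0.50 was -1.01 with the 75th percentile of all probes, -0.75 with quantile normalization, -0.69 unscaled, -0.037 with normexp, 0.12 by the software's gene signal, -0.14 with any spot, -0.72 with every spot and -0.75 over probes detected on both arrays. The guide median of 0.52 was 0.013, 0.17, 0.34, 0.20, 0.28 and 0.40 under the first 6 of these. Stars at least 2-fold lower numbered 3, 2, 2, 0 and 2 under the first 5, against 1, and 1 star was at least 2-fold higher by the software's gene signal and with any spot, against 0. The change of star relative to guide, -0.30 as the median of 3 pairs, was -0.058 with normexp, whose added constant shrinks differences by construction. By the software's gene signal it was 0.18 over more pairs. The same 3 pairs gave -0.43 (miR-140*), -0.29 (miR-199b*) and -0.15 (miR-877*) by that signal. What else moved these values, beyond the numbers of stars that enter and the added constant, was not tested. A common floor, chosen after seeing the data, left detection at 10 stars and put miR-877* at 0.12. The signs of miR-199b*, miR-135a*, miR-30c-2*, miR-378*, miR-193* and miR-99b* were the same under all alternatives that gave a value. Stars near the floor are limited by signal over background.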
